A study of Rattus norvegicus with 6 samples.

Results

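Astrocytes clear water, potassium and bicarbonate from the space around neurons, and pass ions and metabolites to one another through gap junctions. The 9 genes described here, Gja1, Gjb2, Gjb6, Aqp4, Aqp9, Kcnj10, Kcnj16, Atp1b2 and Slc4a4, encode proteins of that work. They were chosen by name, and every probe set whose single symbol in the platform annotation is one of them was taken. That gave 16 of the 31042 probe sets on the array that are not controls. Of the 16, 13 were above the filter on dim signals and were tested, and they read 7 of the 9 genes.

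Gene expression was measured with the Affymetrix Rat Genome 230 2.0 array in primary astrocytes cultured from rat spinal cord. There were 3 arrays of hSOD1G93A cultures, from rats that carry human superoxide dismutase 1 with the mutation linked to amyotrophic lateral sclerosis, and 3 arrays of NonTG cultures, which lack the transgene. All cultures were confluent and had spent 24 hours in supplemented L15 medium when RNA was taken, and each group has arrays lettered A, B and C. The labels used here give neither the promoter of the transgene, nor the age of the animals, nor whether the 3 arrays of a group came from separate animals, so the spread behind each p-value is that of these arrays and may be technical. The array reads rat transcripts, and no value here checks the human transgene.

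Connexins, named Gja and Gjb, form hexamers that dock between neighbouring cells as gap junction channels. Aquaporins are tetrameric pores for water, and some also pass glycerol. In astrocytes Aqp4 and the inward rectifier potassium channel Kir4.1, which Kcnj10 encodes, lie densely at the endfeet on blood vessels, and Kir4.1 takes up the potassium that active neurons release. The sodium pump and the sodium bicarbonate cotransporter act beside them.

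None of the 7 genes differed between hSOD1G93A and NonTG cultures beyond the spread of the arrays. The mean of the hSOD1G93A arrays was above that of the NonTG arrays for all 7 genes at the brightest probe set of each, with a median log2 difference of 0.19, against 0.0030 over all 10473 genes tested. This median was 0.052 without hSOD1G93A B, 0.081 without hSOD1G93A C and 0.32 without hSOD1G93A A, and Gja1 had a difference below 0 without hSOD1G93A B (-0.0027) or without NonTG C (-0.026). Of the 13 probe sets 12 had a difference above 0, as had 52.0% of all probe sets tested. At the brightest probe set of each gene the log2 differences were 0.056 to 0.28. Over all 13 probe sets they ran from -0.79 to 0.43, and limma's adjusted p was 0.9997 for each of the 13, while 0.00% of all 18625 probe sets tested passed the threshold of 0.05. The 3 hSOD1G93A arrays did not move together: A was low for most of these genes, while B and C were high.

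Kcnj10, Atp1b2 and Slc4a4, genes of potassium, sodium and bicarbonate transport, had this order of arrays, as had the brightest Aqp4 probe set. A link between promoter sequence and this order was not tested. The sequences around the transcription starts of Kcnj10, Atp1b2 and Slc4a4 are shown here. They run from 250 bases before to 50 after the start, are taken from RefSeq on the GRCr8 build, and are written 5′ to 3′ on the strand of the gene. Capitals mark 3 motifs, searched on both strands. The GC box was searched as GGGCGG, the CCAAT box by the letters of its name, and the TATA box as TATAAA, and no match of 1 motif overlapped another.
Kcnj10, chr13:87334260-87334559, + strand: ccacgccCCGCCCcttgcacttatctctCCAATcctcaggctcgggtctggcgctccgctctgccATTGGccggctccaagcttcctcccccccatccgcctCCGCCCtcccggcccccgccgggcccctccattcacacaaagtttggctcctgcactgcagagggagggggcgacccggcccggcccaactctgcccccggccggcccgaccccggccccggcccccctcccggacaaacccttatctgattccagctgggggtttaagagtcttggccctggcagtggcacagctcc
Atp1b2, chr10:54823659-54823958, - strand: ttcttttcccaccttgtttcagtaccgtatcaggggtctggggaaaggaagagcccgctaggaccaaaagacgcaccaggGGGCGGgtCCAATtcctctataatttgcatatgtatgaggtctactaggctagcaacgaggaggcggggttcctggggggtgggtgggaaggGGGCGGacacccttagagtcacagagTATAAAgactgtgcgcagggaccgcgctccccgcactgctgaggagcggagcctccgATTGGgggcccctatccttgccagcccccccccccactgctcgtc
Slc4a4, chr14:19468233-19468532, - strand: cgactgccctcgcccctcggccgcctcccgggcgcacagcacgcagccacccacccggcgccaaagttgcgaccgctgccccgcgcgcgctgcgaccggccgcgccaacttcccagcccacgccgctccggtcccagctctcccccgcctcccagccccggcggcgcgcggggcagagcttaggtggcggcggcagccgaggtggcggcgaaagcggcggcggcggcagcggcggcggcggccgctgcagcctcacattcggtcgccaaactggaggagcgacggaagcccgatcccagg
Kcnj10 and Atp1b2 each held 2 GC boxes and 2 CCAAT boxes, Atp1b2 also held 1 TATA box, and the Slc4a4 window held 0 of all 3 motifs. A GC box was present in 33.1% of the 33469 rat promoter windows of the same length, a CCAAT box in 37.5% and a TATA box in 14.2%. The 9 genes have 11 windows in the table, of which 6 held a GC box, 6 a CCAAT box and 1 a TATA box. These matches describe letters, not sites in use.

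Gja1 encodes connexin Cx43, the main gap junction protein of astrocytes. Its brightest probe set (1372002_at) gave signals of 14916, 17918 and 16852 on hSOD1G93A arrays A, B and C, against 15151, 18653 and 14183 on NonTG arrays A, B and C. The groups overlapped almost fully, and the highest and the lowest of the 6 values were both NonTG. The mean log2 signal was 14.01 ± 0.13 in hSOD1G93A and 13.96 ± 0.21 in NonTG (SD, n = 3 each), a log2 difference of 0.056 (SE 0.11, 95% interval -0.19 to 0.30). The interval runs from 0.876-fold to 1.23-fold.

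A second Gja1 probe set (1369640_at) read 2868, 4066 and 3528 in hSOD1G93A and 2920, 3606 and 2502 in NonTG. On both Gja1 probe sets array B was the highest of its group, and the log2 difference of the second was 0.21 (SE 0.16). The third (1369639_at) was dim on all arrays, from 6.84 to 47.2 in hSOD1G93A and from 22.1 to 41.5 in NonTG. It was below the dim filter and not tested.

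Gjb2 encodes connexin Cx26 and Gjb6 connexin Cx30, and they lie next to each other on rat chromosome 15 with 0 annotated genes between them in the RefSeq table of GRCr8. Gjb2 (1373386_at) gave 231, 215 and 387 in hSOD1G93A and 220, 225 and 260 in NonTG. Array C was the highest in both groups, and hSOD1G93A C alone stood clearly above the rest. The log2 difference was 0.19 (SE 0.23, 95% interval -0.32 to 0.71), and it was -0.069 without hSOD1G93A C.

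Gjb6 (1368577_at) stayed below the filter on dim signals, 66.7, on all 6 arrays. It read 11.1, 3.44 and 29.7 in hSOD1G93A and 4.87, 1.40 and 38.4 in NonTG. Array C was again the highest of each group, at a level where the order of the values cannot be relied on. It is the only probe set of Gjb6, so no change in this connexin could be measured.

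Aqp4, the water channel of astrocyte endfeet, was read by 3 probe sets that did not all follow each other. The brightest (1372190_at) gave 14272, 18772 and 17756 in hSOD1G93A and 15622, 16449 and 14412 in NonTG. The hSOD1G93A arrays held both the highest and the lowest value. The log2 mean was 14.04 ± 0.21 in hSOD1G93A and 13.92 ± 0.096 in NonTG, a difference of 0.12 (SE 0.10, 95% interval -0.11 to 0.36).

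The second Aqp4 probe set (1368981_at) also had its highest value on hSOD1G93A B but its lowest on NonTG C, with 6387, 8580 and 7453 in hSOD1G93A and 6858, 7141 and 5528 in NonTG, and a log2 difference of 0.20 (SE 0.13). The third (1387397_at) read 341, 70.3 and 585 in hSOD1G93A and 489, 353 and 417 in NonTG. On hSOD1G93A B this probe set was near the level of the dim filter, while the other probe sets of Aqp4 were highest on that array. Its log2 difference was -0.79 with a wide error (SE 0.62, 95% interval -2.19 to 0.62), and the mean over all 3 probe sets of Aqp4 gave -0.16 (SE 0.20) in place of 0.12.

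Aqp9, a channel for water, glycerol and other small solutes, was dim on every array. Its only probe set (1368621_at) read 17.5, 59.96 and 8.37 in hSOD1G93A and 13.7, 18.3 and 35.1 in NonTG. The values scattered with no order by group, and no array was above the filter.

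**Figure D1:**
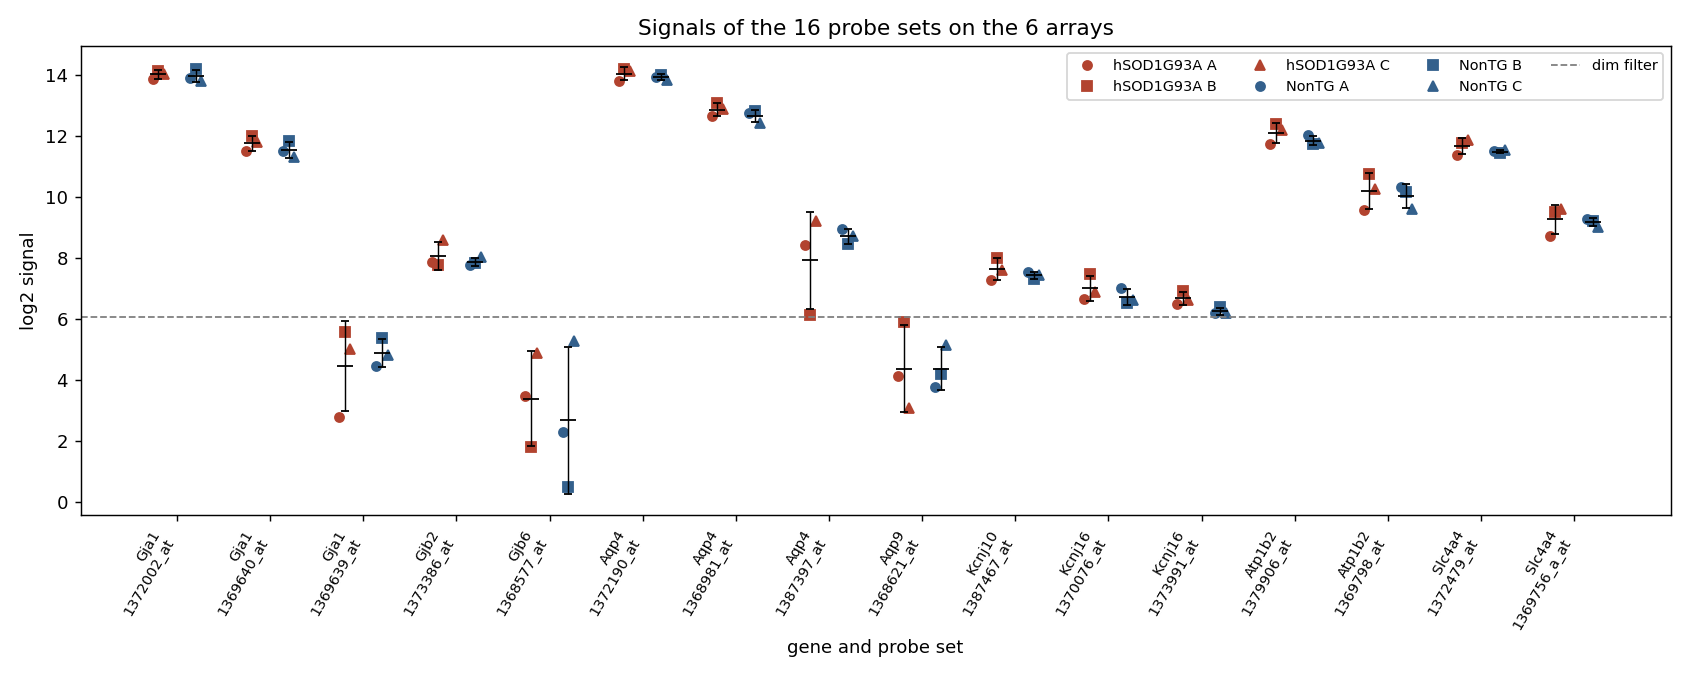
Log2 signal of the 16 probe sets (horizontal axis) on the hSOD1G93A arrays (red, left of each pair) and the NonTG arrays (blue, right), with the letter as the marker shape, black bars for mean ± SD (n = 3) and a dashed line at the dim filter of 66.7. Gjb6, Aqp9 and 1 of the Gja1 probe sets lie under the line on all 6 arrays, and the third Aqp4 probe set is at 70.3 on hSOD1G93A B.

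Kcnj10 encodes Kir4.1, and Kcnj16 encodes Kir5.1, a subunit that joins Kir4.1 in mixed channels. Kcnj10 (1387467_at) gave 155, 254 and 193 in hSOD1G93A and 183, 157 and 175 in NonTG. The hSOD1G93A arrays spanned the whole NonTG range, with A below it and B and C above it. The log2 mean was 7.62 ± 0.36 in hSOD1G93A and 7.42 ± 0.12 in NonTG, a difference of 0.20 (SE 0.22, 95% interval -0.29 to 0.69).

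The brighter Kcnj16 probe set (1370076_at) read 101, 176 and 117 in hSOD1G93A and 129, 91.9 and 98.1 in NonTG. Only hSOD1G93A B lay above all NonTG values, and the log2 difference of 0.28 had an SE of 0.28. The dimmer one (1373991_at) read 90.0, 121 and 99.0 in hSOD1G93A and 72.3, 83.2 and 72.5 in NonTG. Here all 3 hSOD1G93A arrays lay above all 3 NonTG arrays, with a log2 difference of 0.43 (SE 0.26, 95% interval -0.15 to 1.02) that did not pass limma's test (adjusted p = 0.9997). It was 1 of the 13 tested probe sets with no overlap between the groups, and the other 12 overlapped. Of all 18625 probe sets, 7.51% had no overlap, 4.00% wholly higher and 3.51% wholly lower in hSOD1G93A, so a single member of 13 is near the background. No signal of either Kcnj16 probe set was above 176, and the filter lies at 66.7.

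Atp1b2 encodes the beta 2 subunit of the sodium pump, also known as an adhesion molecule on glia. Its brighter probe set (1379906_at) gave 3416, 5317 and 4672 in hSOD1G93A and 4126, 3437 and 3506 in NonTG. Arrays B and C of hSOD1G93A exceeded every NonTG array, and hSOD1G93A A was the lowest of all 6. The log2 mean was 12.10 ± 0.33 in hSOD1G93A and 11.84 ± 0.14 in NonTG, a difference of 0.26 (SE 0.15, 95% interval -0.085 to 0.60). Its unadjusted p of 0.124 in limma was the smallest among the 13 probe sets, where 2.54% of all probe sets had an unadjusted p below 0.05 and none of the 13 did.

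The other Atp1b2 probe set (1369798_at) read 766, 1707 and 1235 in hSOD1G93A and 1292, 1140 and 770 in NonTG. Here too hSOD1G93A B was the highest array and hSOD1G93A A the lowest, and the log2 difference was 0.17 (SE 0.28).

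Slc4a4 encodes the electrogenic sodium bicarbonate cotransporter, which links astrocyte pH to membrane voltage. Its brighter probe set (1372479_at) gave 2618, 3443 and 3705 in hSOD1G93A and 2867, 2780 and 2932 in NonTG. The 3 NonTG arrays lay close together, with hSOD1G93A A below them and hSOD1G93A B and C above them. The log2 mean was 11.65 ± 0.26 in hSOD1G93A and 11.48 ± 0.039 in NonTG, a difference of 0.17 (SE 0.12, 95% interval -0.11 to 0.45).

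The second Slc4a4 probe set (1369756_a_at), whose suffix marks probes shared by transcripts of 1 gene, read 422, 723 and 768 in hSOD1G93A and 616, 587 and 521 in NonTG. The order of the hSOD1G93A arrays was the same, and the log2 difference was 0.10 (SE 0.21).

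**Figure D2:**
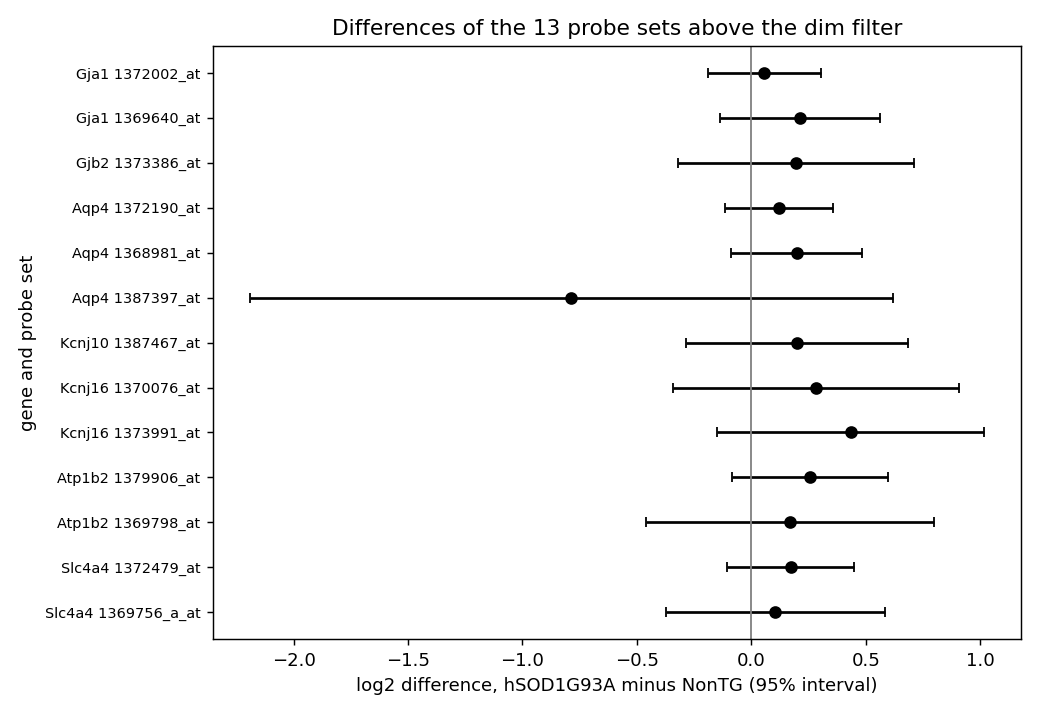
Log2 difference, hSOD1G93A minus NonTG, of the 13 tested probe sets with limma's 95% interval (horizontal axis; 3 arrays per group). All 13 intervals include 0, and the widest belongs to the third Aqp4 probe set, from -2.19 to 0.62.

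Comparison within letters shows where the spread lies. Over all tested probe sets, deviations from the group means correlated weakly between arrays of the same letter (0.30 for A, 0.25 for B, 0.20 for C). The difference was therefore also taken between the arrays of each letter. For Atp1b2 (1379906_at) the log2 difference was -0.27 within A, 0.63 within B and 0.41 within C. For Kcnj10 it was -0.24 within A, 0.70 within B and 0.15 within C.

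Slc4a4 (1372479_at) had -0.13 within A, 0.31 within B and 0.34 within C, and the brightest Aqp4 probe set -0.13, 0.19 and 0.30 in the same order of letters. In total 9 of the 13 probe sets were lower within A and higher within B and C, where 17.0% of all probe sets had this pattern. The highest of the 6 signals was on hSOD1G93A B for 8 of the 13, against 22.4% of all probe sets, and the lowest was on hSOD1G93A A for 6 of the 13, against 16.5%. The pattern was noticed in these values, and probe sets of 1 gene and genes on 1 array are not independent, so it was given no test.

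The brightest Gja1 probe set (1372002_at) stood outside it, with -0.023 within A, -0.058 within B and 0.25 within C. The second Gja1 probe set (1369640_at) had the pattern, with -0.026, 0.17 and 0.50. Gjb2 stood outside it too, with 0.076, -0.064 and 0.57 in the same order of letters. So did the third Aqp4 probe set (-0.52, -2.33 and 0.49) and the dimmer Kcnj16 probe set (0.32, 0.54 and 0.45). With the letter as a replicate block, no member passed either: the adjusted p of the 13 probe sets lay between 0.834 and 0.958, with the smallest for the second Gja1 probe set. Over all probe sets 5.85% then had an unadjusted p below 0.05.

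**Figure D3:**
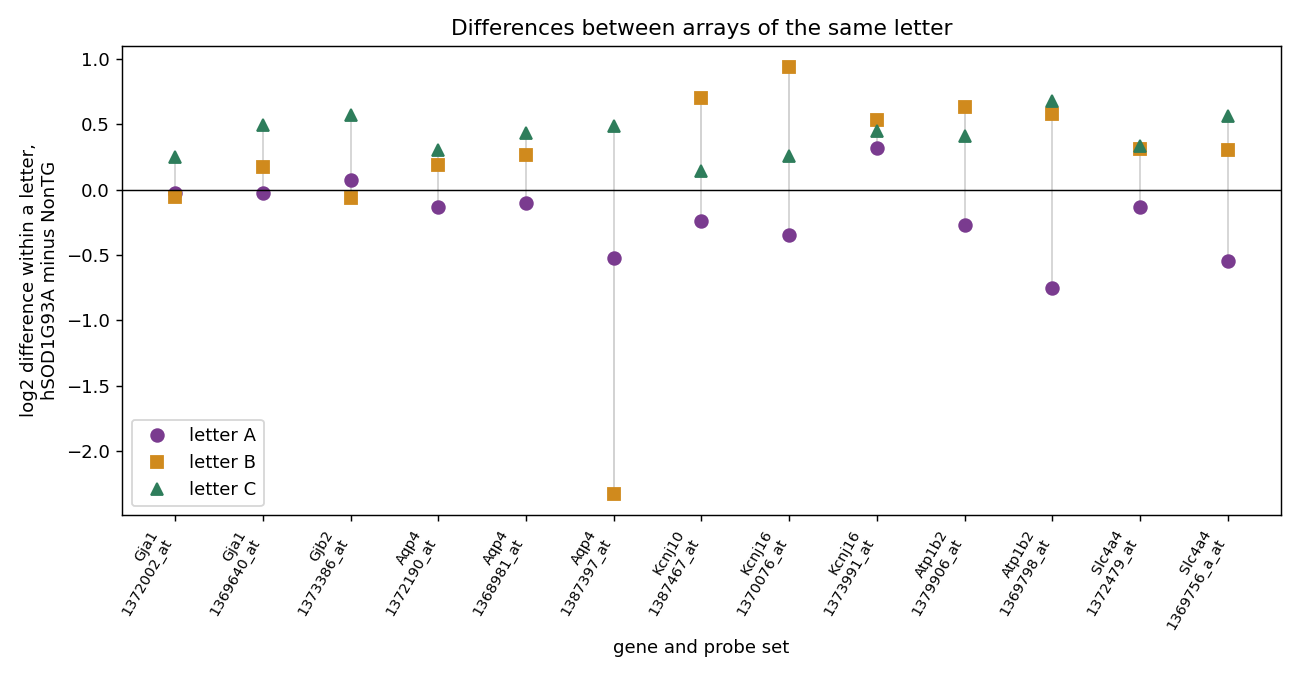
Log2 difference between the hSOD1G93A and the NonTG array of the same letter (vertical axis) for the 13 tested probe sets, with the letter as marker shape and colour. Letter A lies under 0 for 11 of the 13, letter C lies above 0 for all 13, and letter B ranges from -2.33 for the third Aqp4 probe set to 0.94 for Kcnj16.

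The value of the 7 genes on an array, taken as the median of each gene's log2 signal minus its mean over the 6 arrays, was -0.19, 0.22 and 0.14 on hSOD1G93A A, B and C, against -0.046, -0.15 and -0.16 on NonTG A, B and C. Markers of pericytes and smooth muscle, 7 of 8 above the filter, had values of 0.34, -0.89 and 0.029 in hSOD1G93A and 0.14, -0.20 and 0.41 in NonTG. They were thus lowest on hSOD1G93A B, where the 7 genes were highest. Their summed signal ranged from 17517 to 29039.7 in hSOD1G93A and from 23595 to 29427 in NonTG.

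The median of the fibroblast and meningeal markers, 11 of 11 above the filter, was also lowest on hSOD1G93A B, at -0.38. It was highest on hSOD1G93A A, at 0.33, with -0.039 on hSOD1G93A C and -0.047 to 0.016 on the NonTG arrays. The summed signal of these markers ranged from 54256 to 76374 in hSOD1G93A and from 72259.9 to 76875 in NonTG. The list was not uniform, with 8 genes lower and 3 higher in mean in hSOD1G93A. On hSOD1G93A B, Dcn read 283, against 59.1 to 92.3 in NonTG. Aldh1a2 read 474 there, against 152 to 282 in NonTG. Neither gene passed limma's adjusted threshold. Ependymal markers, 3 of 6 above the filter, had values of -0.23, 0.45 and 0.00044 in hSOD1G93A and -0.25, 0.18 and -0.11 in NonTG, with summed signals of 1303 to 2065 in hSOD1G93A and 1280.1 to 1781 in NonTG.

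The 12 astrocyte markers above the filter, of 13 that are not among the 9 genes, varied less: -0.13, 0.062 and 0.028 in hSOD1G93A and -0.15, 0.093 and -0.021 in NonTG. Their summed signal ranged from 87062 to 97837 in hSOD1G93A and from 91829.5 to 101736 in NonTG, so cultures of both groups carried the labelled cell type. Markers of the oligodendrocyte lineage had 7 of 12 genes above the filter. Their values were 0.28, 0.27 and 0.048 in hSOD1G93A and -0.074, -0.25 and -0.37 in NonTG. Their summed signals were 5899.8 to 8081 in hSOD1G93A and 5539 to 6091 in NonTG. In mean, 6 of these genes were higher and 1, Cnp, was lower in hSOD1G93A. The log2 difference of Cnp was -0.11 within A, -0.27 within B and -0.17 within C. Mag and Ugt8 were the 2 genes wholly higher in hSOD1G93A. Both had low signals over all arrays, at 78.1 to 197 for Mag and 58.3 to 115 for Ugt8. None of the 7 passed limma's adjusted threshold. Microglia and macrophage markers, 3 of 12 above the filter, had values of -0.088, -0.10 and 0.15 in hSOD1G93A and -0.17, 0.16 and 0.21 in NonTG. Neuron markers, 9 of 10 above it, had 0.11, -0.040 and 0.18 in hSOD1G93A and -0.12, 0.044 and 0.10 in NonTG. Endothelial markers, 3 of 8 above it, had 0.28, -0.097 and -0.037 in hSOD1G93A and 0.15, -0.25 and 0.15 in NonTG. No marker or member was listed at a signal of 0. The part of these other cell types in the pattern was not tested, and fewer cells of a type cannot be told apart from less RNA per cell in such bulk samples.

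**Figure D4:**
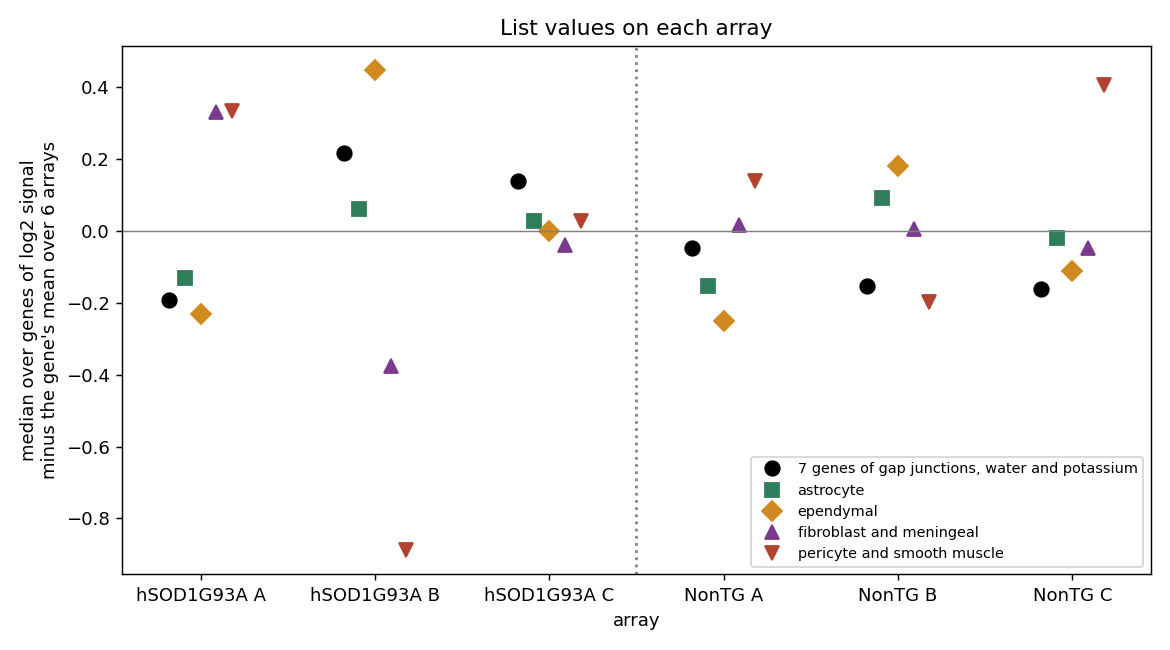
Value on each array (horizontal axis, hSOD1G93A left of NonTG) of the 7 tested genes and of 4 marker lists, each the median over genes of log2 signal minus the gene's mean over 6 arrays. The 7 genes reach 0.22 on hSOD1G93A B, where pericyte and smooth muscle markers are at -0.89 and ependymal markers reach 0.45.

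Other genes of the same tasks were read at the brightest probe set above the filter. Among the other aquaporins 3 of 10 were above it, and all 3 had the lower mean in hSOD1G93A, with a median log2 difference of -0.34. Aqp1, a water channel of choroid plexus, endothelium and red cells, read 1889, 865 and 1489 in hSOD1G93A and 2629, 1813 and 2497 in NonTG. Only hSOD1G93A A reached into the NonTG range, and hSOD1G93A was the lower within each letter, by -0.48 in A, -1.07 in B and -0.75 in C.

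The log2 difference of Aqp1 was -0.76 (SE 0.26, 95% interval -1.34 to -0.18), with an unadjusted p of 0.0155 and an adjusted p of 0.9997 in limma, so it did not pass. Among the 44 genes above the filter in the 6 lists of related genes, 1, Aqp1, had an unadjusted p below 0.05. Of all genes tested 2.64% had such a p, so the count is near the background. Aqp12a had a difference of -0.34 (SE 0.35) at low signals.

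The list of anchors and partners of Aqp4 and Kir4.1 at the membrane held genes of the dystrophin complex, Mlc1, Hepacam and some ion channels. Of its 16 genes 11 were above the filter, 7 higher and 4 lower in mean, with a median of 0.048 and 0 past the test. Utrn, the dystrophin relative utrophin, had a log2 difference of -0.36 (SE 0.20) and Dmd, dystrophin, one of 0.16 (SE 0.13). Mlc1, a membrane protein of astrocyte junctions, read 10602, 16471 and 13595 in hSOD1G93A and 11735, 13413 and 11569.9 in NonTG. As for the brightest Aqp4 probe set, hSOD1G93A arrays held both ends of the range, with hSOD1G93A B highest and hSOD1G93A A lowest.

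Hepacam, which binds Mlc1 and brings it to cell contacts, followed with 2808, 4663 and 3770.5 in hSOD1G93A and 3092, 3858 and 3109.6 in NonTG. Mlc1 and Hepacam were named after their values were seen, and the list as a whole did not share their order: its value was -0.073, 0.017 and 0.052 in hSOD1G93A and -0.046, 0.067 and -0.034 in NonTG, and 5 of its 11 genes were highest on hSOD1G93A B. Neither differed by the test, with log2 differences of 0.13 (SE 0.14) for Mlc1 and 0.14 (SE 0.17) for Hepacam.

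Other connexins, pannexins and their scaffolds had 5 of 22 genes above the filter, 2 higher and 3 lower in mean, with a median of -0.0034. Tjp1, the scaffold ZO-1 that binds Cx43, had a log2 difference of -0.11 (SE 0.091) and Panx1, a channel for ATP release, one of -0.19 (SE 0.20). Other potassium channels had 10 of 18 above the filter, 3 higher and 7 lower, with a median of -0.032. Kcnk1 and Kcnk2, both leak channels, had differences of 0.40 (SE 0.28) and 0.29 (SE 0.23).

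Other sodium pump subunits and FXYD regulators had 5 of 14 genes above the filter, 4 higher and 1 lower, with a median of 0.026. Fxyd1, phospholemman, differed by 0.12 (SE 0.17) and Atp1b3, another beta subunit, by 0.047 (SE 0.075). Bicarbonate, proton and chloride transporters had 10 of 22 above it, 4 higher and 6 lower, with a median of -0.043. Slc4a7, the electroneutral sodium bicarbonate cotransporter, differed by -0.25 (SE 0.14) and Slc12a4, a potassium chloride cotransporter, by -0.23 (SE 0.14). Of the 44 genes of the 6 lists 0 passed the adjusted threshold in limma, and 0 lay wholly above or below the other group, where 7.52% of all genes tested did.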

How the data were processed

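The authors deposited linear intensity values, 1 per probe set and array, and the submitters' processing notes name MAS5 and GCOS 1.4. The design text speaks of GC-RMA and log values, but the deposited intensity values are linear. Their mean after trimming 2% at each end was 500.16 to 500.17 on all 6 arrays.

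Values were used as log2, without pseudocount or further normalization. After 57 control probe sets were removed, the dim filter dropped every probe set with a mean log2 value not above the 40th percentile, which is a signal of 66.7. Detection calls were not used here. A linear model was fitted to the remaining 18625 with limma 3.58.1 (R 4.3.3), whose eBayes step used a trend on intensity. Tests were two-sided, adjusted over all 18625 by the Benjamini-Hochberg method, with a threshold of 0.05. The fit was tested on simulated data. The number of arrays limits the precision, and a permutation of 3 against 3 cannot give a p below 0.1.

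Groups came from the sample titles. Deviations from the group means correlated between arrays of the same letter (0.30 for A, 0.25 for B, 0.20 for C, against -0.28 to 0.025 for different letters), so the letters were taken as pairing the arrays, from the data only. The main fit has no block.

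A gene is given by its brightest tested probe set unless said otherwise. Named were all members, and from each list of related genes the 2 with the smallest unadjusted p and any gene past the threshold or without overlap. Aqp5 was named besides for its low signal, and Mlc1 and Hepacam after their values were seen. Symbols came from the platform annotation, and the Entrez identifiers of all 9 members were found in the RefSeq gene table. The members, lists and tests were chosen with earlier results of these data known. The alternatives tried were the replicate block, quantile normalization, median centring, a pseudocount of 32, no filter and one at the 60th percentile, no intensity trend, array weights, the mean over probe sets of a gene and leaving out each array. Leaving out both arrays of letter A was added after the values were seen.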

Additional observations from a re-analysis of the deposited data

How the results depend on the processing

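The count of probe sets past the adjusted threshold in limma was 0, members included, as reported. It was also 0 under each alternative in which it was counted, the replicate block among them. It was not counted with the mean over probe sets of a gene or with letter A left out. The unadjusted count over all probe sets, 474, was 1090 with the replicate block, 999 with no filter on dim probe sets, 283 with the stricter filter and 852 with array weights, and 343 to 1185 when each array was left out in turn. The median difference over the member genes, 0.19, was 0.052 without hSOD1G93A B and 0.32 without hSOD1G93A A, the lowest and highest values of that kind, and 0.32 without both arrays of letter A, an alternative chosen after seeing the data. Of 110 values of single genes under the alternatives, 106 kept their sign and 4 did not. Gja1 was -0.0027 without hSOD1G93A B and -0.026 without NonTG C, against a highest value of 0.17 without 1 array. Gjb2 was -0.069 without hSOD1G93A C and up to 0.35 without 1 array, and Aqp4 was -0.16 with the mean over its probe sets. The causes were not tested. The smallest adjusted p of a member in any alternative was 0.741, for Atp1b2 with letter A left out. The replicate block changed no call. With the stricter filter, at a signal of 243, Kcnj10 and Kcnj16 had no value. The number of arrays and the low signals of Gjb6, Aqp9 and Kcnj16 limit what could be detected.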
